A study of Mus musculus with 18 samples.

Results

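The genes described here are 8 small leucine-rich proteoglycans, Bgn, Dcn, Lum, Fmod, Ogn, Aspn, Prelp and Podn, together with dermatopontin, Dpt, which binds the same fibrils. They were chosen by name, 9 genes of 24445 in the expression table, with 1 transcript kept for each gene symbol. All 9 passed the filter on low values and were among the 12593 genes tested. The family was followed in primary fibroblasts that carry or lack a mutant Lmna allele causing progeria, a premature ageing disorder, and that received guide RNAs against Lmna.

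Small leucine-rich proteoglycans are secreted proteins with a core of leucine-rich repeats. Biglycan and decorin carry chondroitin or dermatan sulfate chains, and fibromodulin, lumican and osteoglycin can carry keratan sulfate. In skin and tendon they sit on the surface of collagen fibrils, set how thick and how regular these become, and hold growth factors such as TGF-beta. Dermatopontin is a small matrix protein of the dermis that binds decorin and helps collagen and fibronectin assemble.

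Cells were grown from the tail tips of mice aged 2 months and were at passage 5 when RNA was taken. Fibroblasts of the genotype Pro/Pro;Cas9/+ carried the progeria allele on both chromosomes and a Cas9 transgene, and are called Pro/Pro Cas9 cells below. Those of the genotype +/+;Cas9/+ had normal Lmna and the same transgene (wild-type Cas9 cells), and those written Pro/+; +/+ carried 1 mutant allele and no Cas9 (Pro/+ cells). Cells of every mouse were infected in 4 µg/ml polybrene with lentivirus that carried an mCherry reporter and either a mock guide without a genomic match (gMock) or a guide against Lmna (gLmna-1 or gLmna-2). The labels give over 80% mCherry-positive cells and no sorting, so each culture was a mixture, and the promoter of the Cas9 transgene is not given in the sources used here. There were 2 mice per genotype, called replicate 1 and replicate 2, and each gave 1 library per guide, 18 libraries in all. The name of replicate 2 of the Pro/+ cells joins a pair of numbers, and no label says if it was a single animal or a pool. Because the Pro/+ cells also lacked Cas9, their differences from wild-type Cas9 cells hold the Pro allele and Cas9 together, and the contributions cannot be told apart.

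Depth ranged from 22424129 to 42625706 reads per library, worked out from the smallest steps between deposited values. Levels are in FPKM, which scales reads to transcript length and library size, so they can be set side by side between genes. The targeted gene Lmna was at 246 and 369.8 FPKM in Pro/Pro Cas9 cells under gMock; the gLmna-1 libraries had 249 and 217 and the gLmna-2 libraries 247 and 309.95. Fibroblast markers summed to between 9390 and 13570 FPKM in each library, and Krt5, Krt14, Krt1 and Epcam of keratinocytes and Myh4, Ckm, Myod1 and Myog of muscle had means under 0.1 FPKM. Markers of macrophages and other leukocytes were present, summing to 515 to 1675 FPKM in the Pro/Pro Cas9 libraries, 80.5 to 654 in the Pro/+ libraries and 75.95 to 455 in the wild-type Cas9 libraries, with only Cd3e and Cd79a of the 13 under 0.1 on average. Pro/+ replicate 2 differed from the other 5 mice in its sex-linked transcripts: Xist was at 0.0043 to 0.019 FPKM and the Y-linked Ddx3y at 18.4 to 19.4, where the others had Xist at 16.3 to 27.5 and Ddx3y at 0.021 or less.

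The 9 genes covered a wide range of abundance in these cells, from rank 12 to rank 9648 of the 12593 tested genes. Bgn, which encodes biglycan, was the 12th most abundant of the tested genes by its mean, at 1402 to 2503 FPKM over the 18 libraries with a median of 1745. Prelp, a basic collagen anchor of basement membranes and cartilage, ranked 68th with a median of 511 FPKM, and Dcn, the main dermal proteoglycan, ranked 140th with a median of 260.2. Bgn and Prelp had the highest means of the family in every genotype. Under gMock the Fmod mean exceeded that of Dcn in Pro/Pro Cas9 cells (269 against 255 FPKM) and in Pro/+ cells (240 against 206). Fmod, at a median of 174 FPKM (rank 229), Lum, at 133 (rank 347), and Ogn, at 87.2 (rank 624), followed, and their ranges overlapped those of Dcn and of each other, so the order of these neighbours changed from library to library. Dpt had a median of 27.5 FPKM. Aspn, which encodes asporin, a biglycan relative that binds TGF-beta and collagen, was far lower with a median of 5.58 FPKM, and Podn, which encodes podocan, was at 2.77. Their places in the order were 6994 and 9648, and their ranges overlapped as well.

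The genes also differed in how far they moved between libraries. Between its lowest and highest library Bgn spanned a ratio of 1.79, and Prelp 3.00. Dpt spanned a ratio of 31.7, from 7.68 to 243 FPKM, and Aspn 11.05, from 2.09 to 23.04. Ogn spanned 8.45. The lowest Dpt value still rested on 287 reads and the lowest Aspn and Podn values on 111 and 85 reads, whereas every Bgn value rested on at least 87685. The plot of all values by genotype and guide shows these spreads.

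**Figure D1:**
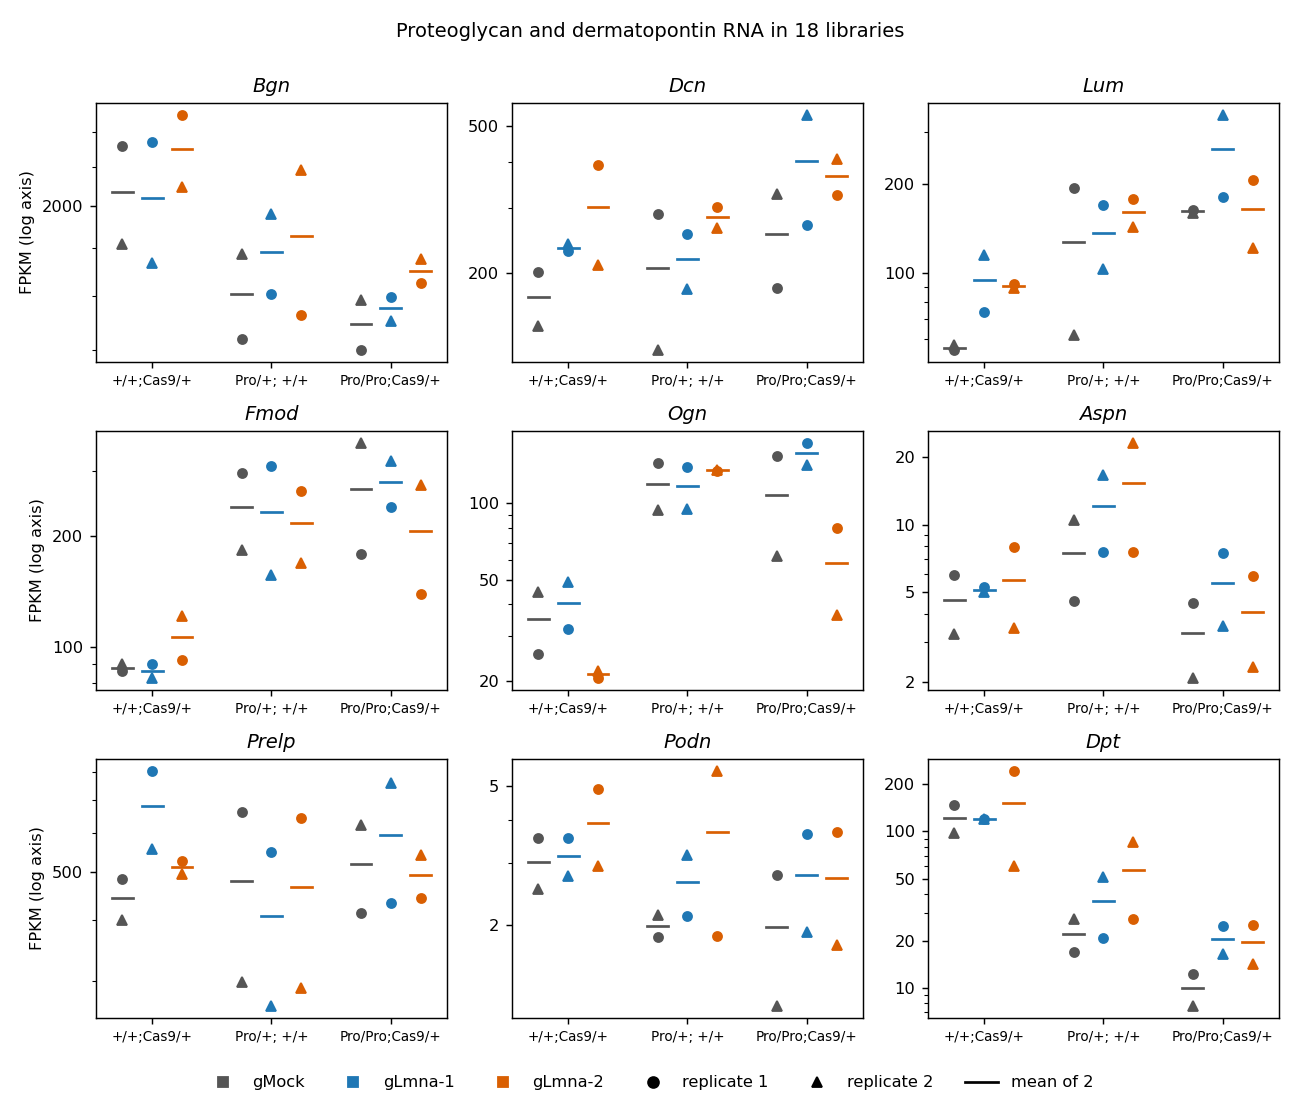
FPKM of the 9 genes in each of the 18 libraries (log axis, a panel per gene), grouped by genotype, coloured by guide, with circles for replicate 1, triangles for replicate 2 and a bar at the mean of 2. All 12 libraries with a Pro allele lie above the 6 wild-type Cas9 libraries for Fmod, as for 1.17% of all tested genes. The 6 Pro/Pro Cas9 libraries lie below the wild-type ones for Dpt, as for 3.6%.

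Several of these genes are neighbours in the mouse genome (mm10). Dcn and Lum lie 47.3 kb apart on chromosome 10, Aspn and Ogn 40.5 kb apart on chromosome 13, and Prelp and Fmod 116 kb apart on chromosome 1, where Dpt also lies. Bgn is on chromosome X and Podn on chromosome 4. The kept transcripts of the genes the results turn on span chr1:134037515-134048277 (Fmod), chr13:49608071-49624500 (Ogn), chr10:97565501-97572703 (Lum) and chr1:164796732-164824266 (Dpt), all on the plus strand. Neighbours differed in their genotype means. Under gMock the mean of Pro/Pro Cas9 cells was 3.07 times that of wild-type Cas9 cells for Ogn and 0.713 times for its neighbour Aspn. It was 3.05 times for Fmod and 1.17 times for its neighbour Prelp. None of these genotype differences passed the test described below, and the gap between neighbours was not tested. Whether the libraries kept strand is not given in the sources used here. Reads of Prelp and the antisense gene model Gm15851, which share 350 exon bases, cannot then be separated, whereas Aspn shares only 7 exon bases with the antisense gene Cenpp, itself at 1.78 FPKM, and Ogn shares 0.

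The promoters of Fmod, Ogn and Dpt are shown because these genes separated the genotypes in most libraries. The windows run from 250 bases before to 50 bases after the RefSeq gene start (build GRCm38.p6, of which mm10 is the browser name), 5′ to 3′ on the plus strand, which is the coding strand of all 3 genes. Capitals mark exact matches, on either strand, to 5 motifs. These were the core promoter element TATAAA, the box named CCAAT, the GC box of Sp1 factors, GGGCGG, the site of AP-1 factors, TGANTCA, and the core bound by TEAD factors, GGAATG. The windows are Fmod chr1:134037004-134037303, Ogn chr13:49607765-49608064 and Dpt chr1:164796413-164796712.
Fmod promoter: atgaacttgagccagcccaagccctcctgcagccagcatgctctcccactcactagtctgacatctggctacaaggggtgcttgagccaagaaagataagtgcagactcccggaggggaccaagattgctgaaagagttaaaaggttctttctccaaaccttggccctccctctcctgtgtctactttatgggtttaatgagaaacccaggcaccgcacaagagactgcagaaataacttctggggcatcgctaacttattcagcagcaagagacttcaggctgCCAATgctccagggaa
Ogn promoter: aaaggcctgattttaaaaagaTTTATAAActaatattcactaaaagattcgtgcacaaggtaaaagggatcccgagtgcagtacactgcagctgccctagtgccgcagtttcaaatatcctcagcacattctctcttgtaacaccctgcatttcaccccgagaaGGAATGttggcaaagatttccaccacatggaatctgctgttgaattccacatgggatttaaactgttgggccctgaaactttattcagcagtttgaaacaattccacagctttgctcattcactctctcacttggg
Dpt promoter: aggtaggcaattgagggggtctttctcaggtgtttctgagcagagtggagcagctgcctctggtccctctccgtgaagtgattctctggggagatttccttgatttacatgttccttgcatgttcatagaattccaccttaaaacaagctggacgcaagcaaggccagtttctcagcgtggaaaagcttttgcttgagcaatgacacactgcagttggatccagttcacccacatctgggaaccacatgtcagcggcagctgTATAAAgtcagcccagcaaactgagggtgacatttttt
In Ogn the capitals TTTATAAA are overlapping TATAAA matches on both strands, whose first bases lie 229 and 227 bases before the start, and GGAATG begins 86 bases before it. In Fmod the only match is CCAAT, 34 bases after the start, and in Dpt the only match is TATAAA, 12 bases after it. Fmod and Ogn thus shared none of these letters. Of all 32851 promoters in the same RefSeq table, 13.62% held TATAAA, 37.41% CCAAT, 35.66% GGGCGG, 7.808% TGANTCA and 14.66% GGAATG. Among the 7 of 9 genes that matched the table, 3 held TATAAA, 3 CCAAT, 2 GGGCGG, 0 TGANTCA and 1 GGAATG. The transcripts in the expression table start 261 bases (Fmod), 56 bases (Ogn) and 69 bases (Dpt) downstream of these RefSeq starts.

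The comparison of genotypes under gMock asks how the family differed before any cut in Lmna. Dpt was far lower in Pro/Pro Cas9 cells than in wild-type Cas9 cells, by 12.2-fold on the means, and was the only member to pass the test. Fmod, Lum and Ogn had means 3.05, 2.90 and 3.07 times those of wild-type Cas9 cells, without passing it. Bgn, Dcn, Aspn, Prelp and Podn lay within 1.53-fold of the wild-type mean in either direction. The values for Pro/+ cells are given beside these, and both comparisons use the same 2 wild-type libraries. The test was limma on log2(FPKM + 1), which understates ratios of low values, and a gene was called where its Benjamini-Hochberg adjusted p, over the 12593 genes, was under 0.05.

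Dermatopontin stood at 12.3 and 7.68 FPKM in the gMock libraries of Pro/Pro Cas9 cells (9.99 ± 3.26, SD, n = 2), at 17.02 and 27.5 in Pro/+ cells (22.3 ± 7.40, n = 2) and at 147 and 97.4 in wild-type Cas9 cells (122 ± 35.1, n = 2). Both Pro/Pro Cas9 libraries were below both wild-type ones, as for 18.5% of all tested genes. Both Pro/+ libraries were below them as well, as for 27.9%. For Pro/Pro Cas9 against wild-type Cas9 cells the log2 difference was −3.49 (SE 0.33, limma adjusted p = 0.038). This was 1 of 9 members called, where 0.397% of all tested genes were called and 0.389% were called lower. The Dpt difference was present along the whole transcript: over its 5 parts the ratio of Pro/Pro Cas9 to wild-type Cas9 cells lay between 0.0758 and 0.0835. For Pro/+ against wild-type Cas9 cells it was −2.41 (SE 0.33, limma adjusted p = 0.066), and 0 members were called there, with 3 at an unadjusted p under 0.05, against 0.413% of all genes. Limma voom on recovered reads called 0 members there as well. With pseudocount 5, or with only the 2 genotypes in the fit, this difference of Dpt passed (limma adjusted p = 0.046 and 0.038).

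The call on Dpt in Pro/Pro Cas9 cells rested on small numbers of mice. It was lost when any of the 6 mice was left out: the limma adjusted p was 0.086 and 0.054 without Pro/Pro Cas9 replicate 1 and 2, 0.077 and 0.080 without Pro/+ replicate 1 and 2, and 0.32 and 0.11 without wild-type Cas9 replicate 1 and 2, while the log2 difference stayed between −3.80 and −3.18. It was also lost without the filter on low values and with only the 2 genotypes in the fit (limma adjusted p = 0.16 and 0.075). On recovered reads limma voom called Dpt with library totals (adjusted p = 0.045) and did not with trimmed-mean scaling (adjusted p = 0.065). Other marker lists moved with it. The fibroblast markers summed to 9390 to 10750 FPKM in the Pro/Pro Cas9 libraries, 9528 to 10680 in the Pro/+ libraries and 11410 to 13570 in the wild-type Cas9 libraries, and all 11 tested leukocyte markers had positive differences under gMock (median 1.94, 0 called). Of the 9 fibroblast markers, 2 were called lower in the same comparison: Pdgfra, a growth factor receptor of fibroblasts, at 8.93 and 8.93 FPKM against 22.3 and 20.1, and Thy1, a surface protein of fibroblasts, at 41.9 and 34.6 against 461 and 301. In bulk RNA, fewer cells of a type and less RNA per cell cannot be told apart, and the part of cell composition in the Dpt difference was not tested.

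Biglycan, decorin and asporin are close relatives, of which biglycan and decorin carry chondroitin or dermatan sulfate, and none passed the test. Bgn was at 1402 and 1586 FPKM in the gMock libraries of Pro/Pro Cas9 cells, 1439 and 1775 in Pro/+ cells, and higher, at 2315 and 1821, in the wild-type pair. Both libraries of each Pro genotype were below both wild-type ones, as for 18.5% (Pro/Pro Cas9) and 27.9% (Pro/+) of all tested genes. The log2 differences were −0.46 (SE 0.25, limma adjusted p = 0.69) and −0.36 (SE 0.25, limma adjusted p = 0.59). Dcn stood at 182 and 329 FPKM, 289 and 124, and 201 and 144 in the same order, with full overlap. Its log2 differences from wild-type Cas9 cells were 0.52 and 0.15 (SE 0.47; limma adjusted p = 0.93 and 0.92). Aspn was at 4.49 and 2.09 FPKM, 4.59 and 10.4, and 5.97 and 3.26. The highest of these 6 Aspn values belonged to Pro/+ replicate 2, the mouse with Y-linked transcripts, and the signs of its log2 differences were opposite, −0.40 in Pro/Pro Cas9 and 0.55 in Pro/+ cells (SE 0.46; limma adjusted p = 0.96 and 0.65).

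Fibromodulin and lumican, which bind type I collagen and share binding sites on it, had higher means in cells with a Pro allele, without passing the test. Fmod had 179 and 358 FPKM in Pro/Pro Cas9 cells (269 ± 127, n = 2) and 296 and 184 in Pro/+ cells (240.06 ± 79.3, n = 2), against 86.0 and 89.9 in wild-type Cas9 cells (87.96 ± 2.78, n = 2). Both libraries of each Pro genotype were above the wild-type pair, as for 16.2% (Pro/Pro Cas9) and 22.6% (Pro/+) of all tested genes. The mice with a Pro allele varied more among themselves than the wild-type mice did. The log2 differences were 1.52 (SE 0.37, limma adjusted p = 0.22) and 1.40 (SE 0.37, limma adjusted p = 0.25). Lum had 164 and 160.2 FPKM in Pro/Pro Cas9 cells, 194 and 61.5 in Pro/+ cells, against 55.04 and 56.9 in wild-type Cas9 cells. Pro/+ replicate 2 thus lay just above the wild-type pair while the other Pro libraries were close together. The log2 differences of Lum were 1.52 (SE 0.49, limma adjusted p = 0.34) and 0.95 (SE 0.49, limma adjusted p = 0.49). Prelp, of the same class, had 414 and 623 FPKM, 663 and 298, and 484 and 399.7, with differences of 0.21 and 0.015 (SE 0.41).

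Osteoglycin, a small proteoglycan of bone, vessel wall and skin also called mimecan, was at 154 and 61.7 FPKM in Pro/Pro Cas9 cells (108 ± 65.0, n = 2) and 145 and 94.1 in Pro/+ cells (119.5 ± 36, n = 2). In wild-type Cas9 cells it was at 25.5 and 44.5 (35 ± 13, n = 2). Both gMock libraries of each Pro genotype exceeded both wild-type ones, as for 16.2% (Pro/Pro Cas9) and 22.6% (Pro/+) of all tested genes. The log2 differences were 1.503 (SE 0.49, limma adjusted p = 0.345) and 1.76 (SE 0.49, limma adjusted p = 0.26). Podn was at 2.78 and 1.18 FPKM, 1.84 and 2.14, and 3.54 and 2.53, with differences of −0.48 and −0.42 (SE 0.29; limma adjusted p = 0.76 and 0.59). Along the transcripts the ratio of Pro/Pro Cas9 to wild-type Cas9 means was even: 3.00 to 3.21 over the 4 parts of Fmod, 2.49 to 3.21 over the 4 of Lum and 2.66 to 3.54 over the 9 of Ogn, counting parts over 50 bases. Markers of cartilage and bone, where these proteins are also made, moved as well: 5 of the 6 tested had positive differences in each Pro genotype, where 50.66% (Pro/Pro Cas9) and 48.6% (Pro/+) of all genes did, and 0 were called. Their sum was 43.5 to 500 FPKM in the Pro/Pro Cas9 libraries, 79.6 to 237 in the Pro/+ libraries and 29.9 to 88.95 in the wild-type Cas9 libraries, ranges that overlapped, with Col9a1 under 0.1 on average. Their part in the higher values was not tested.

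With 2 libraries a group, separation alone is frequent. Lum, Fmod and Ogn had both Pro/Pro Cas9 gMock libraries above both wild-type ones, a pattern that 16.2% of all tested genes showed, and Bgn and Dpt had both below, as did 18.5%. For Pro/+ cells, 3 members were above (22.6% of all genes) and 3 below (27.9%). The median log2 difference over the 9 genes was 0.21 for Pro/Pro Cas9 and 0.15 for Pro/+ cells, beside 0.0027 and −0.0075 over all tested genes. Pro/Pro Cas9 and Pro/+ cells were not separated by the test for any member (0 called, 1 at an unadjusted p under 0.05, and 0.0% of all genes called). Limma voom called 0 members too. The gap between them was widest for Dpt, at −1.08 (SE 0.33), and Aspn, at −0.96 (SE 0.46), both with a limma adjusted p of 0.97.

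**Figure D2:**
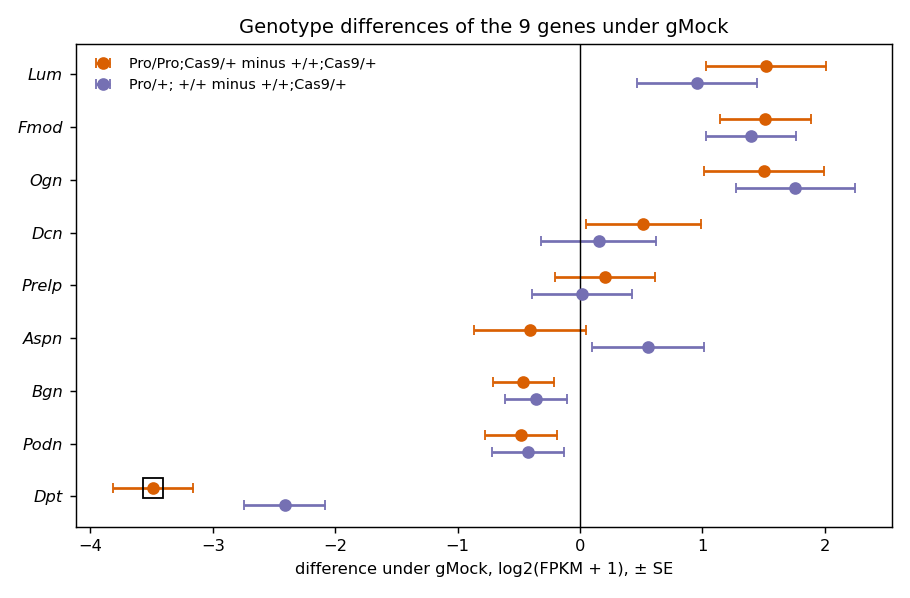
Differences of log2(FPKM + 1) from wild-type Cas9 cells under gMock for each gene, Pro/Pro Cas9 cells in orange and Pro/+ cells in violet, with bars of ± 1 standard error from the limma fit and a square around the value that passed the test. Only Dpt in Pro/Pro Cas9 cells, at −3.49, carries the square, while Lum, Fmod and Ogn lie between 0.95 and 1.76.

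The same genotypes were compared again in the cells that received the Lmna guides, with the 2 guide libraries of each mouse averaged, so the libraries differ from those above although the mice do not. Ogn was called higher in Pro/+ cells here. The Dpt mean was again lowest in Pro/Pro Cas9 cells, but their guide libraries overlapped those of Pro/+ cells. The log2 difference of Dpt between these genotypes was −0.99 (SE 0.55, limma adjusted p = 0.46). In Pro/Pro Cas9 cells the gLmna-1 libraries had 173 and 142 FPKM of Ogn and the gLmna-2 libraries 80.3 and 36.2. The Pro/+ libraries had 139.5 and 95.4 for the first guide and 134 and 136 for the second, and the wild-type Cas9 libraries 31.9 and 48.8, then 20.5 and 21.8. All 6 Pro/+ libraries, gMock included, were above all 6 wild-type libraries, as for 5.77% of all genes. The gLmna-2 library of Pro/Pro Cas9 replicate 2 lay within the wild-type range. The log2 difference passed for Pro/+ cells, at 2.07 (SE 0.25, limma adjusted p = 0.024), and was 1.64 in Pro/Pro Cas9 cells (SE 0.25, limma adjusted p = 0.058). The first was 1 of 9 members called higher, where 1.64% of all genes were called higher and 4.34% in either direction.

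The Ogn call in Pro/+ cells depended on every mouse of the 2 genotypes. The limma adjusted p was 0.060 and 0.077 without Pro/+ replicate 1 and 2 and 0.13 and 0.10 without wild-type Cas9 replicate 1 and 2, with log2 differences between 1.90 and 2.24. In Pro/Pro Cas9 cells, where 0 members passed by the main test (4 at an unadjusted p under 0.05, 0.596% of all genes called), Ogn passed with limma voom on recovered reads (adjusted p = 0.048). Lum passed with only the 2 genotypes in the fit, or without Pro/+ replicate 1 or 2 (limma adjusted p = 0.041, 0.041 and 0.042).

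Lumican under the guides was at 182 and 344 FPKM (gLmna-1) and 207 and 122 (gLmna-2) in Pro/Pro Cas9 cells, 170.2 and 104, then 178 and 144 in Pro/+ cells, and 73.9 and 115, then 92.1 and 89.1 in wild-type Cas9 cells. Its log2 differences from wild-type Cas9 cells were 1.12 (SE 0.19, limma adjusted p = 0.065) in Pro/Pro Cas9 and 0.67 (SE 0.19, limma adjusted p = 0.11) in Pro/+ cells. All 6 Pro/Pro Cas9 libraries exceeded all 6 wild-type ones for Lum and for Fmod, as 3.09% of all genes did. Fmod under the guides ranged from 139.5 to 321 FPKM in Pro/Pro Cas9 cells and from 158 to 309 in Pro/+ cells, against 82.7 to 121 in wild-type Cas9 cells. Fmod was the only member with all 12 Pro-allele libraries above all 6 wild-type libraries, a pattern found in 1.17% of all tested genes. Its log2 differences were 1.28 (SE 0.33, limma adjusted p = 0.14) and 1.17 (SE 0.33, limma adjusted p = 0.10).

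Dermatopontin under the guides was at 24.7 and 16.6 FPKM (gLmna-1) and 25.3 and 14.2 (gLmna-2) in Pro/Pro Cas9 cells. Pro/+ cells had 20.8 and 50.9, then 27.6 and 85.4, and wild-type Cas9 cells 120.3 and 120.7, then 243 and 60.3. Every Pro/Pro Cas9 library was below every wild-type library, as for 3.6% of all genes. In Pro/+ cells the gLmna-2 library of replicate 2, at 85.4, exceeded the lowest wild-type library, so the libraries of these genotypes overlapped. The log2 differences were −2.56 (SE 0.55, limma adjusted p = 0.098) and −1.58 (SE 0.55, limma adjusted p = 0.16). Without Pro/+ replicate 2 the value for Pro/+ cells was −2.29 and without replicate 1 it was −0.86. Aspn, the gene that this mouse also had at its highest, differed between Pro/Pro Cas9 and Pro/+ cells by −1.29 (SE 0.50, limma adjusted p = 0.36), and 0 members passed in that comparison (1 at an unadjusted p under 0.05, 0.0% of all genes called, 0 members by limma voom).

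The guides were next compared with gMock in cells of the same mouse. No member passed in any genotype, although most guide libraries had more Dcn, Aspn, Podn, Bgn and Dpt than the gMock library of the same mouse. In Pro/Pro Cas9 cells 0 of 9 members were called (3 at an unadjusted p under 0.05, 0.0794% of all genes called), in Pro/+ cells 0 (2 at an unadjusted p under 0.05, 0.0% of all genes) and in wild-type Cas9 cells 0 (2 at an unadjusted p under 0.05, 0.85% of all genes). Limma voom on recovered reads also called 0 members in each. Leukocyte markers had higher values with the guides as well: 11 of 11 tested had positive changes in Pro/Pro Cas9 cells (median 0.34, beside −0.0058 over all genes), 11 of 11 in Pro/+ cells (0.55, beside −0.041) and 10 of 11 in wild-type Cas9 cells (0.68, beside −0.022), with 0 called in each. Their part in the higher values of the members was not tested.

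Decorin, asporin and podocan were above their own gMock library in 11 of the 12 guide libraries each, as were 2.24% of all tested genes. Bgn and Dpt were above it in 10 of 12, and 6.2% of all genes were in 10 or more. Dcn went from 182 to 270 and 326 FPKM in Pro/Pro Cas9 replicate 1, with gLmna-1 and gLmna-2, and from 329 to 536 and 407 in replicate 2. In wild-type Cas9 cells it went from 201 to 229.8 and 393 and from 144 to 239.9 and 210.0, and in Pro/+ cells from 289 to 255 and 301 and from 124 to 182 and 266. The lower value of Pro/+ replicate 1 with gLmna-1 was the exception. The log2 changes of Dcn were 0.60 in Pro/Pro Cas9 cells, 0.38 in Pro/+ cells and 0.60 in wild-type Cas9 cells (SE 0.23; limma adjusted p = 0.52, 1.00 and 0.61). Aspn changed by 0.40, 0.73 and 0.19 (SE 0.17; limma adjusted p = 0.57, 1.00 and 0.83), and Podn by 0.34, 0.40 and 0.16 (SE 0.18).

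Dermatopontin was above its own gMock library in 10 of the 12 guide libraries, and 6.2% of all genes were in 10 or more. These were all 4 of Pro/Pro Cas9 cells, all 4 of Pro/+ cells and 2 of the 4 wild-type Cas9 ones. The share of all genes with this split was not counted, and the 2 guide libraries of a mouse share 1 gMock library. In Pro/Pro Cas9 cells the guide libraries had 1.85 to 2.16 times the Dpt of the gMock library of the same mouse. In wild-type Cas9 cells these ratios were 0.82 and 1.65 in replicate 1 and 1.24 and 0.62 in replicate 2, so the guides there had no shared direction. The log2 changes were 0.94 (SE 0.33, limma adjusted p = 0.46) in Pro/Pro Cas9, 0.85 (SE 0.33, limma adjusted p = 1.00) in Pro/+ and 0.015 (SE 0.33, limma adjusted p = 0.99) in wild-type Cas9 cells. The difference between Pro/Pro Cas9 and wild-type Cas9 cells in this change was 0.92 (SE 0.46, limma adjusted p = 1.00). With the guides the Pro/Pro Cas9 means were 20.6 and 19.8 FPKM, against 120.5 and 152 in wild-type Cas9 cells.

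Lumican changed by 0.30 in Pro/Pro Cas9, 0.41 in Pro/+ and 0.70 in wild-type Cas9 cells (SE 0.33; limma adjusted p = 0.89, 1.00 and 0.67). In Pro/Pro Cas9 cells that change was −0.033 without the gLmna-1 library of replicate 2, at 344 FPKM, and −0.0036 without the gLmna-2 library of replicate 1. Fmod, Ogn and Bgn had changes between −0.22 and 0.17 with both guides pooled. Prelp changed by 0.41 in wild-type Cas9 cells (SE 0.12, limma adjusted p = 0.37), where it went from 484 to 802 and 527 FPKM in replicate 1 and from 399.7 to 557 and 496 in replicate 2. All 4 wild-type guide libraries were above their own gMock library, and 0 of 4 were in Pro/+ cells. Opposite moves of both mice of these genotypes were found in 13.9% (gLmna-1) and 15.3% (gLmna-2) of all genes. The difference between wild-type Cas9 and Pro/+ cells in the Prelp change was 0.54 (SE 0.16, limma adjusted p = 0.755), so it did not pass. In these tests of differing guide effects 0 members were called, where 0.0% (Pro/Pro Cas9 against Pro/+), 0.0476% (Pro/Pro Cas9 against wild-type Cas9) and 0.294% (wild-type Cas9 against Pro/+) of all genes were, with 0, 0 and 1 members at an unadjusted p under 0.05 and 0 by limma voom.

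**Figure D3:**
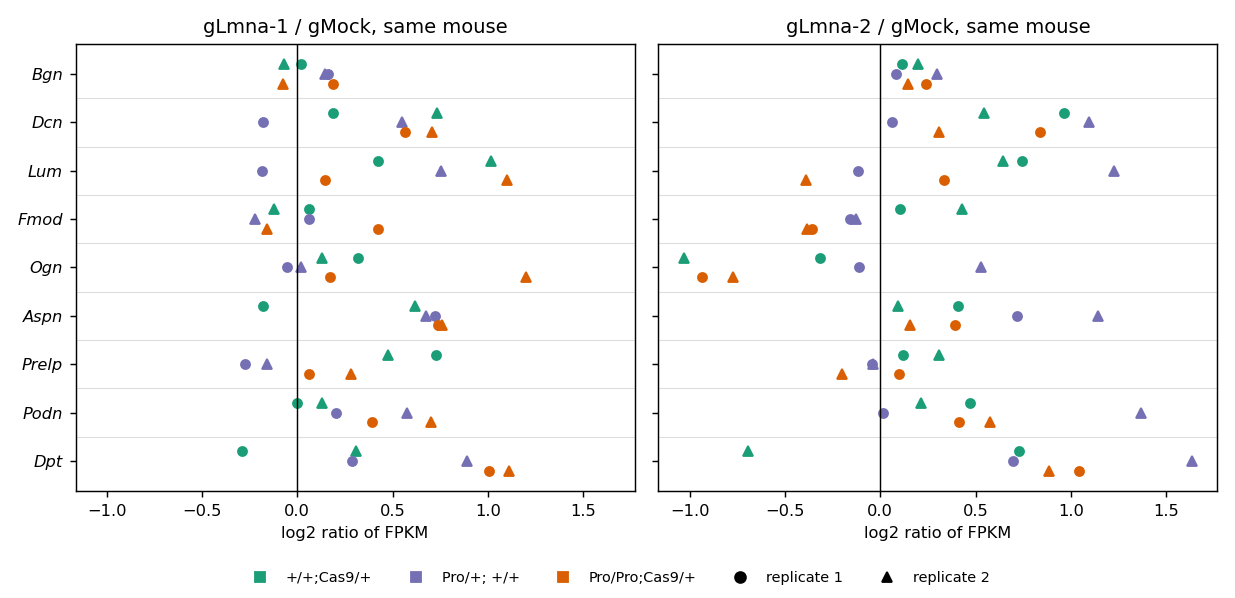
Log2 ratio of FPKM between each guide library and the gMock library of the same mouse, for gLmna-1 (left) and gLmna-2 (right), coloured by genotype with circles for replicate 1 and triangles for replicate 2. Ogn is lower with gLmna-2 than with gLmna-1 in all 4 Cas9 mice, as are 8.23% of all tested genes. Dpt lies above 0 in 10 of the 12 guide libraries, and 6.2% of all genes do in 10 or more.

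The guides differed from each other in Pro/Pro Cas9 cells, and there Ogn was the member that moved. The gLmna-1 libraries had 173 and 142 FPKM of Ogn (158 ± 22.1, n = 2), whereas the gLmna-2 libraries had 80.3 and 36.2 (58.2 ± 31.2, n = 2). Markers of other cell types moved as well. Called higher were 2 of 2 tested skeletal muscle markers (Acta1 and Des, median 1.28) and 2 of 6 of pericytes and smooth muscle (Mcam and Cspg4, median 0.37), and called lower were 3 of 6 of cartilage and bone (Comp, Col2a1 and Ibsp, median −0.54) and 1 of 5 of tendon (Thbs4, median −0.26). Fibroblasts, keratinocytes and adipocytes had 1 marker called in each direction, and leukocyte markers 0, with 10 of 11 positive (median 0.58). Their part in the Ogn difference was not tested. Both gLmna-2 libraries were below both gLmna-1 libraries for Ogn, and gMock, at 154 and 61.7, lay between the guides in each mouse. The log2 difference of gLmna-2 from gLmna-1 was −1.52 (SE 0.25, limma adjusted p = 0.0095). Many other genes differed as well: Ogn was 1 of 9 members called lower, where 3.03% of all genes were called lower, 6.92% higher and 9.96% in either direction. Against gMock, Ogn changed by 0.68 with gLmna-1 (SE 0.25, limma adjusted p = 0.20) and by −0.84 with gLmna-2 (SE 0.25, limma adjusted p = 0.24). Neither passed, with 0 members called for gLmna-1 (4 at an unadjusted p under 0.05, 0.977% of all genes called) and 0 for gLmna-2 (3 and 0.357%), and 0 by limma voom in both. In the other genotypes each guide alone called 0 members against gMock, by limma and by limma voom: in wild-type Cas9 cells 1 and 2 members had an unadjusted p under 0.05 with gLmna-1 and gLmna-2 (0.691% and 0.564% of all genes called), and in Pro/+ cells 1 and 3 (0.0% of all genes with either guide).

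The Ogn difference between the guides was lost without either gLmna-2 library (limma adjusted p = 0.060 without replicate 1 and 0.082 without replicate 2), and with only the Pro/Pro Cas9 libraries in the fit (0.19). Without the block on the mouse it was not called (limma adjusted p = 0.14). The value −1.52 lay between −1.99 and −1.06 when any of the 4 guide libraries was left out. Over the 9 parts of the Ogn transcript the ratio of gLmna-2 to gLmna-1 lay between 0.355 and 0.567.

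Wild-type Cas9 cells had the same order for Ogn, with 31.9 and 48.8 FPKM under gLmna-1 and 20.5 and 21.8 under gLmna-2. The log2 difference was −0.87 (SE 0.25, limma adjusted p = 0.44), and 0 members were called (2 at an unadjusted p under 0.05, 0.0% of all genes, 0 members by limma voom). In all 4 Cas9 mice gLmna-2 was thus below gLmna-1, as for 8.23% of all tested genes. In Pro/+ cells, which lack Cas9, Ogn was at 139.5 and 95.4 under the first guide and at 134 and 136 under the second, a difference of 0.22 (SE 0.25, limma adjusted p = 1.00; 0 members called, 0 at an unadjusted p under 0.05, 0.0% of all genes, 0 members by limma voom). Fmod and Lum also had lower gLmna-2 means in Pro/Pro Cas9 cells, by −0.50 (SE 0.16, limma adjusted p = 0.084) and −0.65 (SE 0.38, limma adjusted p = 0.33). Fmod was lower in both mice, 239.6 to 139.5 and 321 to 275 FPKM, and passed with upper quartile scaling (limma adjusted p = 0.043) or without the gLmna-1 library of replicate 2 (0.030). Lum was lower in replicate 2 only, 344 to 122, and was 182 to 207 in replicate 1. Without the gLmna-1 library of replicate 1 the Lum difference passed (−1.31, limma adjusted p = 0.0498), and without that of replicate 2 it was 0.0083.

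**Figure D4:**
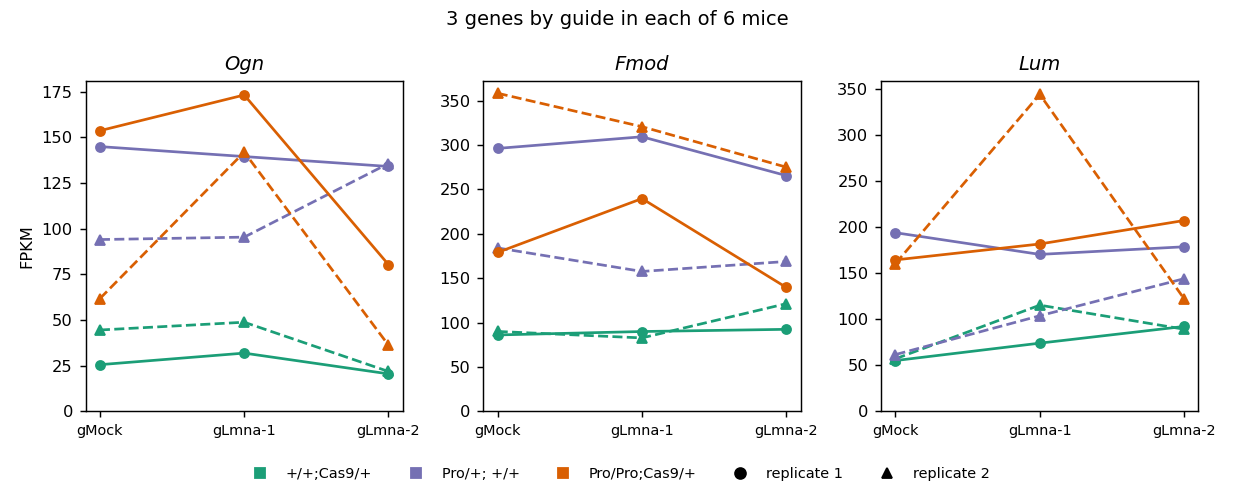
FPKM of Ogn, Fmod and Lum (linear axes from 0) under gMock, gLmna-1 and gLmna-2, a line per mouse, with solid lines for replicate 1, dashed lines for replicate 2 and colours for genotype. Ogn is lower with gLmna-2 than with gLmna-1 in both Pro/Pro Cas9 mice (173 to 80.3 and 142 to 36.2) and both wild-type Cas9 mice, and Lum peaks at 344 in a single Pro/Pro Cas9 library.

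The collagen partners, chain-building enzymes, proteases and receptors of these proteoglycans gave few calls outside the contrast of the guides. Under gMock 0 genes of the 6 lists were called for either Pro genotype against wild-type Cas9 cells, among 4 of 10 other family genes tested, 14 of 14 collagens and fibril partners, 23 of 24 enzymes of chondroitin and dermatan sulfate synthesis, 6 of 8 of keratan sulfate synthesis, 11 of 13 proteases and 14 of 15 receptors and growth factors. Of the other family genes only Tsku, which encodes the Wnt and TGF-beta binding protein tsukushi, was well expressed, at 32.07 to 65.5 FPKM, and 0 of the 4 were called in any comparison described. Under the guides Egfr, a receptor that decorin binds, was higher than in wild-type Cas9 cells by 1.15 (limma adjusted p = 0.015) in Pro/Pro Cas9 and 1.09 (limma adjusted p = 0.0099) in Pro/+ cells. It was at 12.8 to 13.6 FPKM in the 4 Pro/Pro Cas9 guide libraries and 4.96 to 5.66 in the 4 wild-type ones, with no overlap. Chsy1, an enzyme that polymerises chondroitin, was higher by 0.56 (limma adjusted p = 0.045) and 0.58 (limma adjusted p = 0.022). In Pro/+ cells the collagenase gene Mmp13, higher by 2.60 (limma adjusted p = 0.037), and the TGF-beta coreceptor gene Tgfbr3, higher by 0.69 (limma adjusted p = 0.025), were called too.

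Between the guides in Pro/Pro Cas9 cells, most called collagen genes were lower with gLmna-2. Of the 14 collagens and fibril partners 6 were lower, where 3.03% of all genes were called lower. The other called gene, Col6a3, was higher by 0.79 (limma adjusted p = 0.015). The list median was −0.49 beside 0.058 over all genes. This contrast alone does not tell which guide moved away from gMock. Col5a2, which sets fibril thickness, was lower by 0.74 (limma adjusted p = 0.019), Col12a1 by 1.03 (limma adjusted p = 0.020) and Col6a2 by 0.63 (limma adjusted p = 0.021). Of the proteases, 4 of 11 were lower and 1 was higher (median −0.42). Mmp13 was lower by 1.14 (limma adjusted p = 0.0093). Adamts5, an aggrecanase, was lower by 1.12 (limma adjusted p = 0.0094). It was at 42.03 and 30.9 FPKM with gLmna-2 and 85.3 and 73.5 with gLmna-1. All called genes among the enzymes that build the chains were higher, where 6.92% of all genes were called higher. In keratan sulfate synthesis 3 of 6 were higher (Chst1, Fut8 and B3gnt2, median 0.35). Chst1, the sulfotransferase of that chain, was higher by 1.51 (limma adjusted p = 0.0038). It was at 2.88 and 4.04 FPKM with gLmna-2 and 0.389 and 0.735 with gLmna-1. In chondroitin and dermatan sulfate synthesis 2 of 23 were higher (Chst11, by 1.44, and Xylt1, by 0.81; limma adjusted p = 0.0065 and 0.0094), a share near that of all genes and with a median of 0.055 beside 0.058, and 1 receptor or growth factor gene was higher (Tgfb1) and 1 lower (Bmp4). For the guides together against gMock, Col14a1, a fibril-associated collagen that binds decorin, was the only gene of these lists called in Pro/Pro Cas9 cells, higher by 0.87 (limma adjusted p = 0.023), from 0.348 and 2.01 FPKM to between 1.53 and 4.63. It was also called with gLmna-1 alone (0.95, limma adjusted p = 0.024) and gLmna-2 alone (0.79, limma adjusted p = 0.035). Adamts5 was called against gMock with gLmna-1 alone as well, higher by 0.98 (limma adjusted p = 0.046). In wild-type Cas9 cells Mmp13 (−1.16, limma adjusted p = 0.024) and Bmp4 (0.96, limma adjusted p = 0.048) were called with gLmna-1.

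The genes whose log2 levels followed each member most closely over the 18 libraries are given as a description without a test, since libraries of 1 mouse share their cells. For Dpt the closest were Adamts2 (Pearson r = 0.98), the protease that trims procollagen, Galnt17 (0.95) and Efemp1 (0.95). For Fmod they were Comp (0.97), the cartilage oligomeric matrix protein, Mmp13 (0.94) and Fkbp9 (0.93), and for Ogn they were Mest (0.97), P4ha1 (0.97), a collagen prolyl hydroxylase, and Dkk3 (0.96). Bgn was closest to Postn (0.89), Mmp11 (0.89) and Fgfr1 (0.89), Lum to Armh4, Ap3s1 and Itga11 (0.88 each), Prelp to Rcan2 (0.89), Aspn to Rnf139, Ssc5d and Matn2 (0.91 each), and Dcn to Smpdl3a (0.84), Cd52 (0.82) and Wfdc17 (0.82). Cd52 is a leukocyte surface gene, and leukocyte markers summed highest in Pro/Pro Cas9 cells. The part of these cells in the Dcn values was not tested. Among the members themselves Dpt ran against Fmod (r = −0.88) and with Bgn (0.85).

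Once each mouse's mean was removed, so that only differences among libraries of the same mouse were left, other partners appeared. With 1 library per mouse and guide, these hold guide effects and the spread between libraries together. Ogn then followed Thbs3 (0.97), Il6st (0.96) and Tox (0.96), and Dpt followed Postn (0.91), which encodes periostin, Aspn (0.87) and Adamts2 (0.86). Within mice Dcn moved with Podn (0.85), Lum (0.82) and Dpt (0.79), and Podn moved with Dpt (0.81) and Aspn (0.81), all genes that were higher in most guide libraries. Fmod did not share this movement, with r of −0.37 to Dpt and −0.16 to Dcn.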

How the data were processed

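RNA was sequenced from 18 libraries (3 genotypes, 3 guides, 2 mice per genotype). FPKM values were deposited by the authors for 404759 parts of 36795 RefSeq transcripts, made with HOMER on mm10, exons only and uncondensed, per the file headers; the submitters' processing notes also list STAR 2.4.0k and FastQC 0.11.2. Part lengths are as deposited. Of 24 library columns 6 matched no sample and were not used. Parts were joined by length-weighted mean and the transcript with the highest mean was kept per symbol. The design had assumed gene values.

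Genes reaching 1 FPKM in 2 or more libraries entered the tests, on log2(FPKM + 1) by limma 3.58.1 in R 4.3.3, with a trended prior and Benjamini-Hochberg adjustment at 0.05, after a test on simulated data. Guide comparisons used all 18 libraries with the mouse as a block. Genotype comparisons used 6 gMock libraries or 6 mouse means of guide libraries. Replicate numbers name the same mouse across guides, from the sample names. Deviations of same-mouse libraries correlated at −0.0191 to 0.779. The lowest value was between gLmna-1 and gLmna-2 in Pro/Pro Cas9 cells, where the Ogn call was lost without the block. With 2 mice per genotype, p-values of the genotype comparisons measure the spread between these mice. Those of the guide comparisons rest on how far guide changes differed between mice of a genotype, once the block removed each mouse's level. That remaining spread was pooled over all genotypes. Reads were recovered from value steps (whole within 0.05), and the files do not tell whether single reads or pairs were counted; limma voom on them used library totals or, added after seeing the data, trimmed means of log ratios.

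The members and the lists were chosen with earlier results of these data known. Of each list, up to 4 called genes with the smallest p were named, and for each member averaging at least 5 FPKM the 3 genes with the highest Pearson correlation. RefSeq promoters matched 7 of 9 members. The alternatives were other pseudocounts, filters, scalings, transcript choices, priors, fits and left-out libraries or mice.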

Additional observations from a re-analysis of the deposited data

Results flagged for a closer look

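In 5 of 54 combinations of member, guide and pair of genotypes both mice of a genotype moved one way with a guide and both mice of another genotype the opposite way, judged by log2 ratios of FPKM to the gMock library of the same mouse. Over all tested genes 12.3% of such combinations had this pattern, so the members' share was no higher. These differences were not tested on their own. For Fmod with gLmna-2 the mean log2 ratio was lower by 0.637 in Pro/Pro Cas9 than in wild-type Cas9 cells (a difference of −0.637, mice at −0.36 and −0.38 against 0.10 and 0.43), and the difference between Pro/+ and wild-type Cas9 cells was −0.4078 (mice at −0.16 and −0.12). For Prelp with gLmna-1 the difference was 0.389 between Pro/Pro Cas9 and Pro/+ cells (0.062 and 0.28 against −0.27 and −0.16) and −0.8188 between Pro/+ and wild-type Cas9 cells (the latter at 0.73 and 0.48). For Prelp with gLmna-2 the difference between Pro/+ and wild-type Cas9 cells was −0.2563 (−0.042 and −0.038 against 0.12 and 0.31).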

How the results depend on the processing

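The counts of members called per comparison were within 1.5 times the main count in 235 combinations of comparison and setting and moved in 14; leaving out a library or mouse, where the lone sample left is assumed to vary like the others, kept 107 and moved 19. For gLmna-2 against gLmna-1 in Pro/Pro Cas9 cells (1 member) the count was 2 with upper quartile scaling and 0 with only that genotype's libraries, and leaving out a library gave 0 to 2. The same comparison without the replicate block on the mouse gave 0 members, since the spread between mice then enters the error, and 59 of all genes in place of 1254. For Pro/Pro Cas9 against wild-type Cas9 cells under gMock (1) it was 0 without the low-value filter, with only these 2 genotypes, with a block on whether the sample name has a number suffix, with limma voom under trimmed-mean scaling (a setting added after seeing the data; limma voom with library totals kept 1), and without any mouse (0 to 0). For Pro/+ against wild-type Cas9 cells under gMock (0) it was 1 with pseudocount 5, with only the 2 genotypes, and 0 to 1 without a mouse. Under the guides, Pro/Pro Cas9 against wild-type Cas9 cells (0) gave 1 with limma voom under either scaling, 1 with only the 2 genotypes and 0 to 1 without a mouse. Pro/+ against wild-type Cas9 cells under the guides (1) gave 0 without the filter, 0 with the name-suffix block and 0 to 1 without a mouse. For gLmna-1 against gMock in Pro/Pro Cas9 cells (0) leaving out a library gave 0 to 1, the 1 being Ogn (1.15, limma adjusted p = 0.019) without the gLmna-1 library of replicate 1. The cause of these changes was not tested.

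Signs turned only when a library or mouse was left out, in values that passed no test; the ranges of these log2 values follow. For guides against gMock they were −0.033 to 0.62 for Lum in Pro/Pro Cas9 cells (−0.0036 without the gLmna-2 library of replicate 1), −0.059 to 0.82 for Dcn and −0.15 to 0.98 for Lum in Pro/+ cells, and −0.41 to 0.44 for Dpt and −0.0050 to 0.39 for Aspn in wild-type Cas9 cells. For gLmna-2 against gLmna-1 they were −1.31 to 0.0083 for Lum in Pro/Pro Cas9 cells and −0.076 to 0.52 for Ogn in Pro/+ cells. Under gMock against wild-type Cas9 cells they were −0.82 to 0.012 for Aspn and −0.089 to 0.50 for Prelp in Pro/Pro Cas9 cells, and −0.45 to 0.76 for Dcn and −0.56 to 0.59 for Prelp in Pro/+ cells. A planned count model on the recovered reads also lost the Dpt call under gMock; it is left out, without values, because the deposited values are FPKM. No scaling moved the median of all genes by over 0.1. Aspn and Podn rest on the fewest reads, from 111 and 85 per library.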
